A study of Mus musculus with 37 samples.

Results

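Among 37 single adipose tissue macrophages, 35 were divided into sides chosen by their measured level of H2-Aa, the gene for the alpha chain of the class II molecule I-A. The low side held 5 cells below 150 FPKM and the high side 30 cells at 150 FPKM or more. The remaining 2 cells, numbers 7 and 27, held fibroblast genes and were left out. Their H2-Aa was 30.7 and 32.5 FPKM, so both would have fallen on the low side. FPKM count sequenced fragments per length of transcript and per number of fragments mapped. All cells carried the same labels: male, age-matched mice of the strain C57BL/6J, a high-fat diet (kcal percentages of 60 for fat, 20 for carbohydrate and 20 for protein), epididymal white adipose tissue, and the cell type adipose tissue macrophage. The tissue was digested for 30 min with collagenase D or collagenase IV, and the cells were sorted and captured singly on a microfluidic chip (Fluidigm C1) before polyadenylated RNA was sequenced. Sources used here give neither the age, nor the length of the diet, nor the gate of the sort.

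The labels tied no cell to an animal, so the group counted as 1 sample and nothing was tested. Cells are not replicates of a condition. A difference below is the mean of log2(FPKM + 1) over the low cells minus that over the high cells, and an SD is the spread between cells. A gene was measured when it reached 1 FPKM in at least 5 of the 35 cells, which 4369 genes did, and it was past the fold when the difference was 2 or more in size, that is, 4-fold on this scale.

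Class II molecules display peptides from material that a cell has taken up to CD4 T cells. The alpha and beta chains assemble in the endoplasmic reticulum with the invariant chain, Cd74, which occupies the groove until lysosomal proteases degrade it and the H2-DM heterodimer exchanges its last fragment for a peptide. Transcription of the chains, the invariant chain and H2-DM depends on the coactivator Ciita, which binds no DNA itself and is recruited by factors on the X and Y boxes of their promoters. In adipose tissue, macrophages are a main class II-bearing population and meet T cells there.

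Promoters of 3 class II genes that were lower on the low side are shown, since such boxes are known to be shared by the genes of the pathway. They are RefSeq sequences of the build GRCm38.p6, 250 bases before to 50 after the transcription start, and the deposited values were made on another build, mm9. Capitals mark matches to AGNNACNGATG, used for the X box, or to ATTGG, used for the Y box, and on the reverse strand CCAAT.
H2-Aa, chr17:34287774-34288073, minus strand: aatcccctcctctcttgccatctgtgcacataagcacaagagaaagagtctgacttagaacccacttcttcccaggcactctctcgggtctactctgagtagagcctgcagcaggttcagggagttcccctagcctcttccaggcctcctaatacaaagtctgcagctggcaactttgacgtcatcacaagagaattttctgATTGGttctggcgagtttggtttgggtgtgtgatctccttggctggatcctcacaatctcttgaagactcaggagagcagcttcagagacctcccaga
H2-Eb1, chr17:34305617-34305916, plus strand: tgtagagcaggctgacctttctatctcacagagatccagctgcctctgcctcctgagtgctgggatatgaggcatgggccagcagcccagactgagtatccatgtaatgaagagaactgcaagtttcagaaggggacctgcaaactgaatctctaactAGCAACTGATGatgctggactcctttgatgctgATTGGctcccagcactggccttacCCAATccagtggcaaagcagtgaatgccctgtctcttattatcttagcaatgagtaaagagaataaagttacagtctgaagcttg
H2-DMb1, chr17:34152941-34153240, plus strand: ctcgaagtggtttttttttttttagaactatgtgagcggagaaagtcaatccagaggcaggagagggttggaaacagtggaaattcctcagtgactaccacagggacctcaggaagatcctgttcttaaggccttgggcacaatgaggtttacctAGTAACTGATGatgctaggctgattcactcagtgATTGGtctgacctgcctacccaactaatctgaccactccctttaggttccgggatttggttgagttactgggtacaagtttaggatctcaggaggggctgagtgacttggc
H2-Eb1, the beta chain of I-E, held the X letters from base 159 and the Y letters from base 192 of the printed run. H2-DMb1, a beta chain of H2-DM, held them from bases 156 and 190, so the starts lay 33 and 34 bases apart in these promoters. The H2-Aa run held the Y letters from base 203 and no match to the X letters, and neither of the RefSeq starts of H2-DMa had a match to them. The letters are a fixed spelling, so a missing match does not show that a box is absent, here or in the counts that follow. Of 32851 promoters searched on both strands, 318 (0.968%) held the X letters, 12289 (37.4%) held the Y letters, and 4 (0.0122%) held an X match with a Y match starting 30 to 37 bases on. Those 4 were H2-Eb1, H2-Eb2, H2-DMb1 and Gm31108. Of the 15 measured class II genes, 11 were counted as matched to a promoter in the table, and Cd74 was left out of that count.

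H2-Aa chose the sides, so its values and those of its partner chains are a description. H2-Aa stood at 10.9 in cell 16, 51.1 in cell 26, 8.09 in cell 28, 7.29 in cell 32 and 89.1 FPKM in cell 35. On the high side it ran from 169.6 to 21819 FPKM with a median of 4524. The nearest cells to the threshold were cell 35 inside it, at 89.1 FPKM, and cell 11 outside it, at 169.6 FPKM, followed by cell 2 at 362 FPKM. The other 4 low cells were at 51.1 FPKM or less.

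H2-Ab1, the beta chain of I-A, was at 19.8 in cell 16, 9626 in cell 26, 48.1 in cell 28, 261 in cell 32 and 12.7 FPKM in cell 35, against a high-side range of 808 to 14938 FPKM and a median of 4136. On FPKM as deposited, its level in cell 26 ranked 31 of 35 cells from the lowest. The other 4 low cells lay below every high cell.
H2-Eb1 was at 4.03 in cell 16, 904 in cell 26, 3.24 in cell 28, 2.60 in cell 32 and 3.14 FPKM in cell 35, against 9.26 to 7726 FPKM on the high side and a median of 1651. Cell 26 again sat among the high cells, and the other 4 were below all of them.
Cd74 was at 585 in cell 16, 11195 in cell 26, 130.2 in cell 28, 46.0 in cell 32 and 301 FPKM in cell 35, against 173 to 33723 FPKM and a median of 6410.4. Cd74 was thus still abundant in cells 16 and 35, and without cell 26 only 1 high cell, cell 11, lay below the highest low cell.

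**Figure D1:**
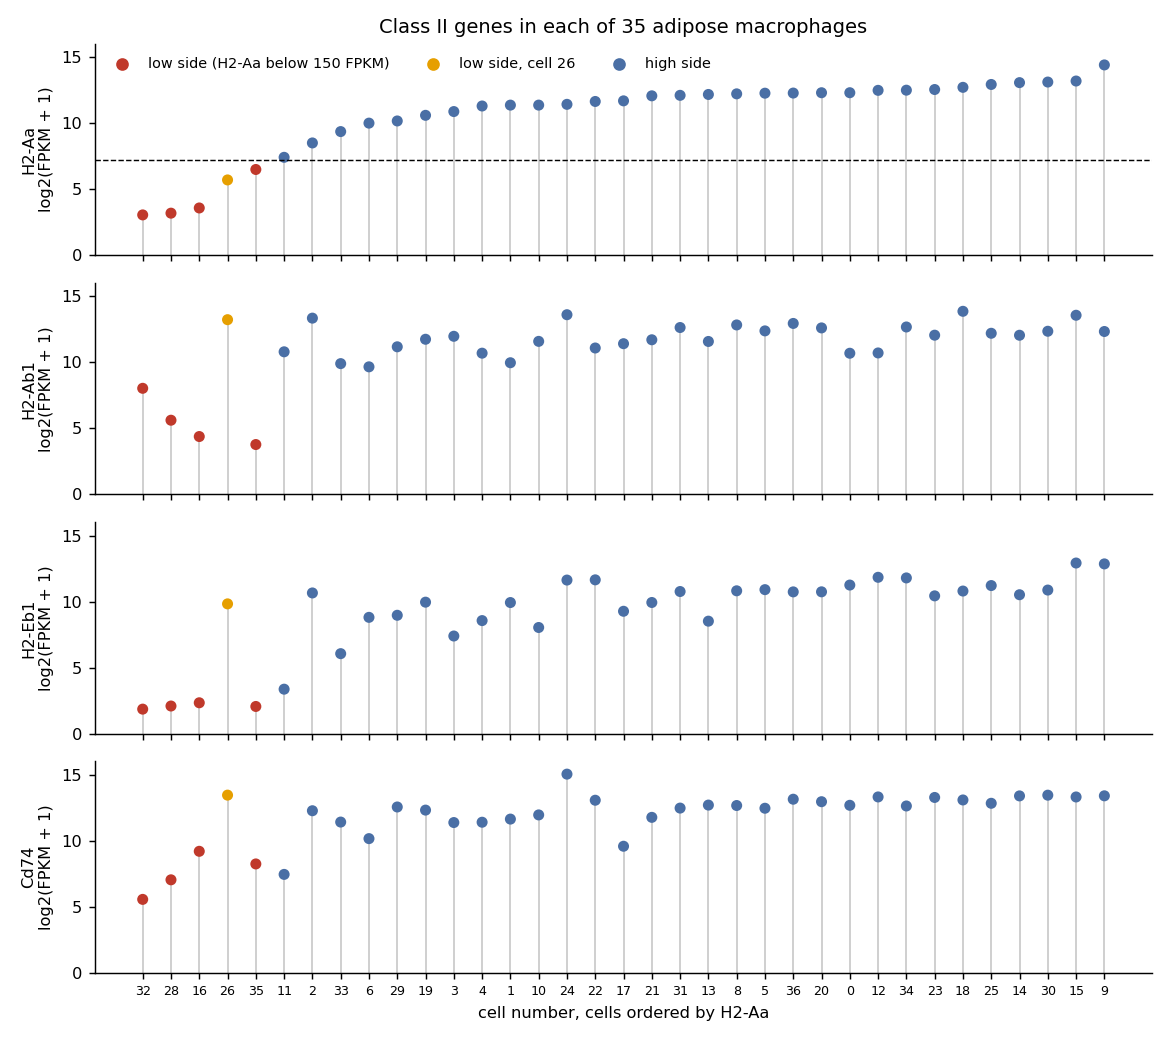
Level of H2-Aa, H2-Ab1, H2-Eb1 and Cd74, as log2(FPKM + 1), in each of 35 cells ordered by H2-Aa; red points are low cells, the orange point is cell 26, blue points are high cells, and the dashed line is the 150 FPKM threshold. Cell 26 is low in H2-Aa alone, at 51.1 FPKM, and cell 11, the first blue point, is low in H2-Eb1 and Cd74.

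Cell 26 therefore went against its side. It ranked 4 from the lowest for H2-Aa, 14 for H2-Eb1, 31 for H2-Ab1 and 34 for Cd74, and its Cd74 stood at 158% of the high-side mean in FPKM. These ranks and this share are of FPKM as deposited and were not taken on rescaled values. All FPKM of cell 26 summed to 1217865, against a high-side median of 303420, which raises its FPKM beside those of most cells. Cell 26 was also a shallow cell: the estimated value of 1 fragment, a stand-in for relative depth, was 7.14 times the median of the cells, against 0.547 to 1.40 in the other low cells. Whether shallow depth had a part in its low H2-Aa was not tested. Cell 11, on the high side, was the reverse case, with H2-Ab1 at 1781 FPKM, H2-Eb1 at 9.26 and Cd74 at 173, ranks 11, 5 and 3 from the lowest. Values without cell 26 are given for each printed gene difference that it moved by more than 1.5 times.

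On the log2 scale, H2-Aa was 4.40 ± 1.58 (SD, n = 5 cells) on the low side and 11.68 ± 1.46 (SD, n = 30 cells) on the high side, a difference of -7.28 (-7.61 without cell 26). The difference was -6.41 (-7.96) for H2-Eb1, -4.87 (-6.42) for H2-Ab1 and -3.63 (-4.82) for Cd74. Over all measured genes, 84 (1.92%) were lower past the fold on the low side and 420 (9.61%) were higher. The sides did not overlap for 1 lower gene (0.0229%), H2-Aa, which the rule fixes, and for 0 higher genes (0%). Without cell 26 these counts were 91 (2.08%), 489 (11.2%), 3 (0.0687%) and 0 (0%), and the 3 were H2-Aa, H2-Ab1 and H2-Eb1.

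Some technical values moved with the sides and others did not. The median relative value of 1 fragment was 1.00 on the low side and 0.986 on the high side. The low cells had 1436 to 2769 genes at 1 FPKM or more (median 2352), against 1224 to 2536 (median 1766) on the high side. Their FPKM summed to 336047 to 1217865 (median 368856), against 225528 to 1841666 (median 303420). The median difference over all measured genes was 0.23 (0.26 without cell 26) on FPKM as deposited, 0.14 (0.33) after each cell was rescaled to a sum of 1000000 FPKM, and -0.26 (-0.37) after each cell was centred on broadly detected genes. The share of genes past the fold that were higher was 83.3% as deposited, 73.5% (169 lower, 468 higher) after rescaling and 58.1% (174 lower, 241 higher) after centring. Rescaling kept the pseudocount of 1 while it raised the values of most cells, so the pseudocount weighed less there. With a pseudocount of 0.1 and no rescaling, 280 genes were lower and 823 higher. The part of detection and scaling in the excess of higher genes was not tested. By cell number, 4 of the 5 low cells fell among cells 20 to 36, with 12 high cells. The other 1 fell among cells 0 to 19, with 18 high cells. The labels name no batch, and this cut by number came from an earlier analysis of these data, not from the labels.

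The peptide-loading gene H2-DMa, the alpha chain of H2-DM, was at 0.8 in cell 16, 2.20 in cell 26, 0.702 in cell 28, 0.504 in cell 32 and 0.552 FPKM in cell 35. It reached 1 FPKM in 25 of 30 high cells, with a median of 205 and a maximum of 2171 FPKM, and stood at 296 FPKM in cell 11. It was below 1 FPKM in 4 low cells and low in cell 26 too, unlike H2-Ab1, H2-Eb1 and Cd74, and the difference was -4.98 (-5.18 without cell 26).
H2-DMb1 was at 251 in cell 16, 2.54 in cell 26, 0.301 in cell 28, 0.559 in cell 32 and 0 FPKM in cell 35, against a high-side median of 92.1 and a maximum of 3394 FPKM, with 26 of 30 cells detected. Among the low cells, cell 16 alone was above the high-side median. The difference was -3.84 (-3.75), and among cells 0 to 19, where cell 16 is the lone low cell, it was 2.27.

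Beyond the 4 core genes, the class II pathway list of 22 genes had 20 matches and 11 measured genes, of which 2 (H2-DMa and H2-DMb1) were lower past the fold and 0 were higher. Without cell 26, 2 were lower and Ctsl was higher. The list's median difference was -0.04, with a range of -0.88 to 0.26 when each low cell was left out in turn. Ciita, the coactivator, was below 0.04 FPKM in all 5 low cells, but it reached 1 FPKM in only 5 of 30 high cells, at most 168 FPKM, and most high cells were below 1 FPKM as well (difference -0.89).
Ctss, the cathepsin that cuts the invariant chain in macrophages, was at 947 in cell 16, 26.04 in cell 26, 1818 in cell 28, 795 in cell 32 and 2065 FPKM in cell 35, against a high-side median of 1503 FPKM. The low cells lay on both sides of that median, with cell 26 the lowest, and the difference of -0.86 became 0.26 without cell 26 and -1.30 without cell 35.
Lgmn, an asparaginyl endopeptidase of the endosomes, was at 558 in cell 16, 593 in cell 26, 378 in cell 28, 94.3 in cell 32 and 837 FPKM in cell 35, against a high-side median of 274 FPKM (difference 1.29). Ctsl, cathepsin L, was at 277 in cell 16, 0.728 in cell 26, 94.6 in cell 28, 41.0 in cell 32 and 929 FPKM in cell 35, against a median of 31.6 FPKM (difference 1.29, 2.63 without cell 26 and 0.36 without cell 35). These 3 protease genes were thus detected in every low cell, apart from Ctsl in cell 26. Ifi30, the thiol reductase of the lysosome, differed by 0.01 as deposited and by 1.00 without cell 26. Leaving out each low cell in turn, its difference ran from -1.13 to 1.00, so its direction depended on the cells included. After centring, which moved the difference of every gene by -0.49, it was -0.48. H2-Oa, H2-Ob and H2-Eb2 were listed at 0 in all 35 cells.

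Macrophage genes were present on both sides. Lyz2, lysozyme, was at 5203 in cell 16, 57.3 in cell 26, 8489 in cell 28, 4838 in cell 32 and 929.7 FPKM in cell 35, against a high-side median of 3878 FPKM. C1qb, a chain of complement C1q, was at 2684 in cell 16, 1531 in cell 26, 3459 in cell 28, 912 in cell 32 and 2255 FPKM in cell 35, against a median of 3608 FPKM. Both genes overlapped between the sides, and among the low cells Lyz2 was lowest in cell 26.
Cd68, a lysosomal membrane protein of macrophages, was at 1492 in cell 16, 13901 in cell 26, 991 in cell 28, 497 in cell 32 and 2015 FPKM in cell 35, against a median of 407 FPKM, a difference of 3.36 (2.63). C1qa, another chain of C1q, was at 52.3 in cell 16, 115 in cell 26, 117 in cell 28, 0.715 in cell 32 and 93.4 FPKM in cell 35, against a median of 743 FPKM, a difference of -3.67 (-4.04). Of the 16 measured macrophage genes, 4 were lower past the fold (C1qa, Aif1 at -3.44, Ptprc at -2.56 and Csf1r at -2.13) and 2 were higher (Cd68 and Spi1 at 3.01). Csf1r is the receptor for the macrophage growth factor and Spi1 the myeloid transcription factor PU.1, which was 1.84 without cell 26. Emr1, which encodes the sorting marker F4/80, was at 14.5 in cell 16, 0.452 in cell 26, 42.2 in cell 28, 74.0 in cell 32 and 34.2 FPKM in cell 35, against a median of 147 FPKM (difference -1.84, -0.91 without cell 26).

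Markers of other cell types were checked for the low side. No gene of the mesothelial, endothelial, neutrophil, B cell, adipocyte, natural killer or erythroid lists reached 1 FPKM in a low cell. The dendritic cell genes Flt3, Xcr1 and Clec9a were listed at 0 in all 35 cells, and the summed dendritic list was 0.120 to 4.32 FPKM (median 0.477) in low cells and 0 to 973 (median 2.07) in high cells. Of the fibroblast list, cell 26 held Dcn at 1.69, Sparc at 1.48 and Gsn at 2161 FPKM, and no other low cell held 3 genes of it; the sum was 0.168 to 2165 FPKM (median 5.39) on the low side and 0 to 3032 (median 2.24) on the high side. Cells with at least 3 genes of the monocyte list were 11, all on the high side, which holds 30 of the 35 cells. With at least 3 of the dendritic list there were 2, also on the high side. Of the 4 measured monocyte genes, 0 were lower past the fold on the low side and 1, S100a4, was higher (difference 2.98). The mast cell and eosinophil list had 1 gene detected in 1 low cell, with a summed level of 44.3 FPKM, and no gene detected in a high cell. The T cell list summed to 0 to 106 FPKM (median 0.156) in low cells and 0 to 467 (median 0.358) in high cells, with at most 1 gene detected in a cell. The part of other cell types' RNA in the differences between the sides was not tested.

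Beyond the chains and H2-DM, the 15 most negative differences among broadly detected genes held proteases, receptors and membrane proteins. Tmem176b, a membrane protein of antigen-presenting cells, was at 1.64 in cell 16, 16.8 in cell 26, 0.52 in cell 28, 0.563 in cell 32 and 0.354 FPKM in cell 35, against a high-side median of 148 FPKM. It was low in all 5 cells, at a difference of -5.01 (-5.69 without cell 26). Ctsh, cathepsin H, was at 0.686 in cell 16, 1.29 in cell 26, 1.03 in cell 28, 0.165 in cell 32 and 25.6 FPKM in cell 35, against a median of 101 FPKM, with cell 35 the one low cell above 2 FPKM (difference -4.41).
Ctsc, cathepsin C, which activates other proteases, was at 1.08 in cell 16, 1.07 in cell 26, 122 in cell 28, 2.04 in cell 32 and 0.245 FPKM in cell 35, against a median of 162 FPKM. Cell 28 stood apart from the other low cells (difference -3.79). Cd83, which protects class II and CD86 from removal from the cell surface, was at 6.00 in cell 16, 4.07 in cell 26, 0.391 in cell 28, 0.85 in cell 32 and 3.81 FPKM in cell 35, against a high-side median of 19.1 and a top value of 1500.3 FPKM (difference -3.85).
Fcgr2b, the inhibitory Fc receptor, was at 14.9 in cell 16, 3.71 in cell 26, 0 in cell 28, 1.21 in cell 32 and 0.391 FPKM in cell 35, against a median of 35.3 FPKM (difference -3.34). Dpysl2, a cytoskeleton-binding protein, differed by -3.56, and Kdm6b, a histone H3 demethylase, by -3.04. Rpl28, a ribosomal protein gene with near-identical copies, differed by -2.96, but it was 194 FPKM in cell 16 and 399.5 in cell 28 and below 1 FPKM in the other 3, and its value is uncertain. All 15 lower and 15 higher genes named by this rule stayed past the fold without cell 26.

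**Figure D2:**
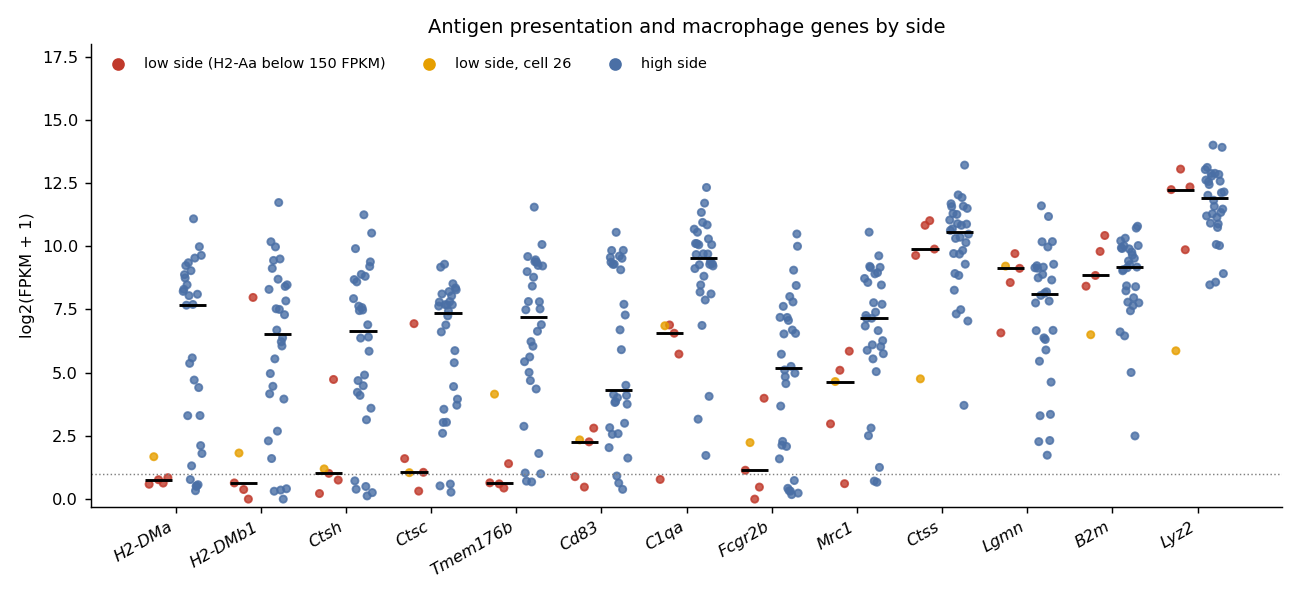
Levels, as log2(FPKM + 1), of genes of antigen presentation and of macrophages in 5 low cells (red, cell 26 orange) and 30 high cells (blue); black bars are medians and the dotted line is 1 FPKM. H2-DMa stays at or below 2.20 FPKM in the low cells, and Lgmn, B2m and Lyz2 overlap between the sides.

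The 15 most positive differences included genes of nucleotide salvage, glycolysis, the mitochondrial ribosome and cell cycle control. Aprt, which salvages adenine, was at 197 in cell 16, 1401 in cell 26, 1115 in cell 28, 1188 in cell 32 and 802 FPKM in cell 35, against a high-side median of 1.38 and a maximum of 1539 FPKM. It was high in all 5 low cells and varied widely on the high side (difference 6.32, 6.11 without cell 26). Cstb, the cystatin that inhibits cathepsins, was at 1387 in cell 16, 24870.3 in cell 26, 2719.9 in cell 28, 1049 in cell 32 and 2055 FPKM in cell 35, against a median of 229 FPKM (difference 4.99, 4.22).
Cdk2ap2, a CDK2-associated protein, was at 406 in cell 16, 1769 in cell 26, 119.7 in cell 28, 2457 in cell 32 and 430.3 FPKM in cell 35, against a median of 10.7 FPKM (difference 5.23). Cdkn1a, the cell cycle inhibitor p21, was at 20.2 in cell 16, 212 in cell 26, 176 in cell 28, 98.2 in cell 32 and 31.6 FPKM in cell 35, against a median of 0.108 and a maximum of 95.2 FPKM (difference 4.82). Mrps12, a mitochondrial ribosomal protein, was at 39.4 in cell 16, 18.3 in cell 26, 332 in cell 28, 383 in cell 32 and 12.6 FPKM in cell 35, against a median of 0 and a maximum of 159.9 FPKM (difference 5.17). For these 3 genes every low cell was above the high-side median, but high cells reached into the low-side range.
Cd9, a tetraspanin of the lipid-associated macrophages of obese fat, was at 138 in cell 16, 495 in cell 26, 1241 in cell 28, 48.1 in cell 32 and 537 FPKM in cell 35, against a high-side median of 2.84 and top value of 1009 FPKM, with 8 high cells above the lowest low cell (difference 4.85). S100a6, a calcium-binding protein, was at 1976 in cell 16, 399 in cell 26, 2990.2 in cell 28, 985 in cell 32 and 1095 FPKM in cell 35, against a median of 122 FPKM (difference 4.56). Both were at 48.1 FPKM or more in every low cell. Tpi1, a glycolytic enzyme with near-identical copies, was near 0 in cell 32 and at 381 FPKM or more in the other 4 (difference 5.61).
The rest of the 15 were Ndufb6, of respiratory complex I, at 4.75, Ranbp1, of nuclear transport, at 4.68, Fam96a at 4.74, Ola1 at 4.63, the host RNA Snhg9 at 4.82 (3.11 without cell 26), 2310009B15Rik at 5.21 and Rpl26 at 4.59. The last of these has near-identical copies. Of the genes past the fold, every low cell lay beyond the high-side median for 39 of the 84 lower and 103 of the 420 higher genes. The count beyond the median was not made over all measured genes. Without cell 26, 65 of the 84 lower and 291 of the 420 higher genes were past the fold too. All these genes were picked by the same values of the same cells, so the counts are a description.

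**Figure D3:**
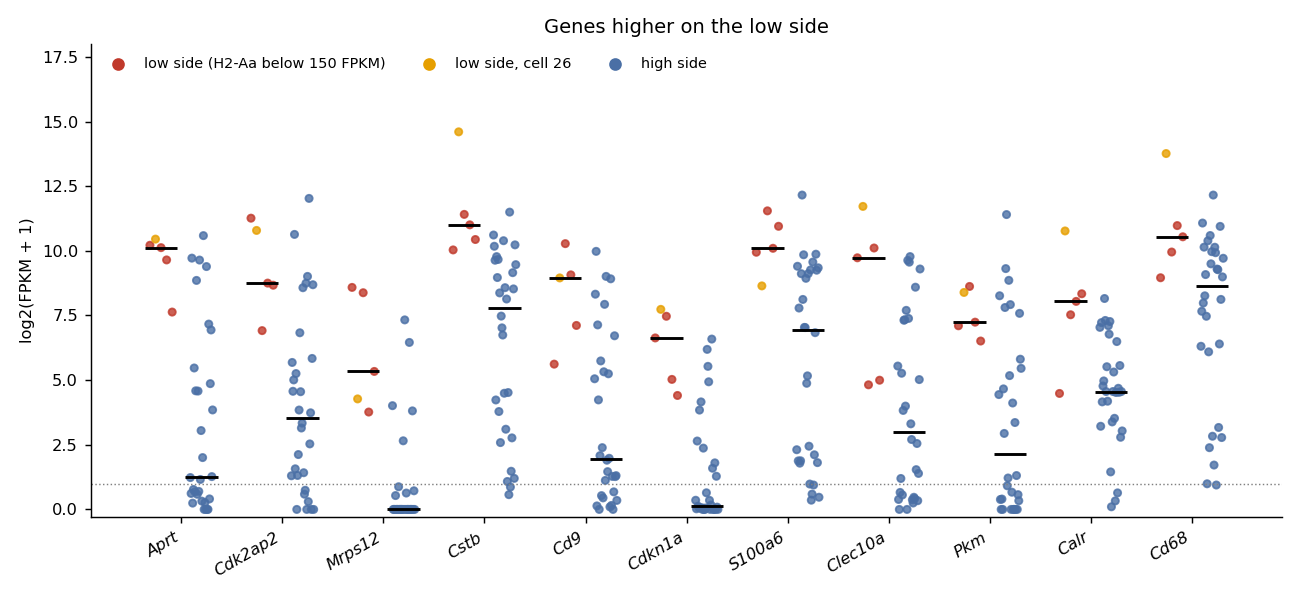
Levels, as log2(FPKM + 1), of 11 genes higher in the 5 low cells (red, cell 26 orange) than in the 30 high cells (blue), with medians as black bars and 1 FPKM as the dotted line. Every gene shown has high cells within the range of the low cells.

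**Figure D4:**
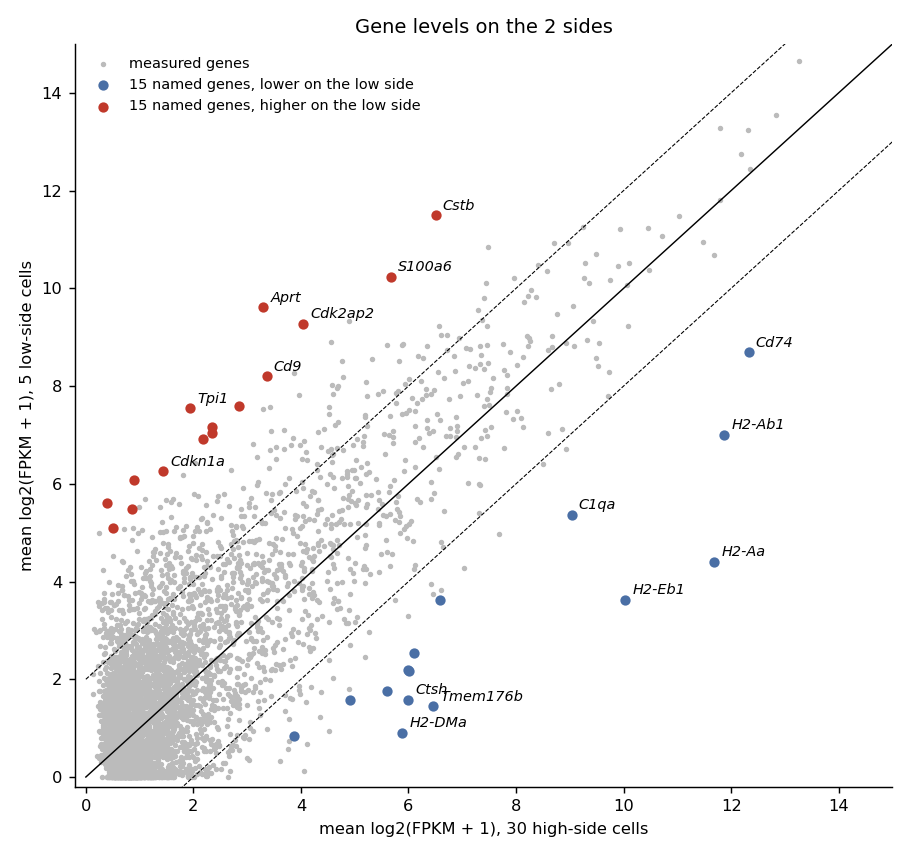
Mean log2(FPKM + 1) of 4369 measured genes in 5 low cells (y axis) against 30 high cells (x axis); the solid line is equality, the dashed lines are differences of 2, and 30 named genes are colored. H2-Aa and H2-Eb1 lie farthest below the line and Aprt farthest above it among the named genes.

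Genes of adjacent functions were read as lists, beside the all-gene median difference of 0.23 and the shares of 1.92% lower and 9.61% higher past the fold. Those shares include many narrowly detected genes. Among the 1254 genes at 1 FPKM or more in at least 15 cells, 73 were lower and 188 higher past the fold. Both are larger shares than over all measured genes, and many list genes were broadly detected. Costimulation had 4 measured genes, 1 lower (Cd83), at a median of -0.74. The interferon gamma axis, which induces Ciita, had 5 measured genes, 0 past the fold, and a median of 0.40 that became -0.09 after centring and -0.46 without cell 16. Class I presentation had 11 measured genes, 3 lower (Psme1, Tapbp and H2-T23) and 2 higher (Psme2 and Calr), at a median of 0.13 that became -0.37 after centring. Within it B2m, the class I light chain, was at 1375 in cell 16, 89.6 in cell 26, 459 in cell 28, 342 in cell 32 and 888 FPKM in cell 35, against a high-side median of 572 FPKM (difference 0.13, 0.70 without cell 26). The proteasome activator genes Psme1, at a difference of -3.94, and Psme2, at 4.58, differed in opposite directions. B2m thus overlapped between the sides, and the class I list's median ran from -0.28 without cell 16 to 0.22 without cell 32. Its 3 lower genes became 1 without cell 16 or cell 28, and its 2 higher genes became 4 without cell 16.

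Lists of macrophage states followed. Of 14 measured genes of CD206 resident macrophages, 2 were lower (Mrc1 and F13a1) and 2 higher (Clec10a and Igf1), at a median of -0.93 (-0.18 without cell 32). The lower count was 5 without cell 16, and 1 when any other low cell was left out. Mrc1, which encodes CD206, was at 56.7 in cell 16, 24.1 in cell 26, 33.2 in cell 28, 6.86 in cell 32 and 0.527 FPKM in cell 35, against a median of 141 FPKM (difference -2.76, -1.95 without cell 35). Clec10a, a lectin of alternatively activated macrophages, was at 30.9 in cell 16, 3369 in cell 26, 27.2 in cell 28, 849 in cell 32 and 1104 FPKM in cell 35, against a median of 7.22 FPKM (difference 4.40), with cell 16 and cell 28 far below the other 3.
Of 14 genes of CD9 lipid-associated macrophages, 0 were lower and 6 higher, at a median of 1.28, and 4 were higher without cell 26, where the median was 1.75. The 6 were Cd9, Spp1, Lpl, Ctsd, Fabp4 and Cd36. Without cell 26, Spp1 moved from 3.12 to 1.67 and Ctsd from 2.98 to 1.93. Lpl, lipoprotein lipase, was at 365 in cell 16, 4171 in cell 26, 521 in cell 28, 0.3 in cell 32 and 235 FPKM in cell 35, against a median of 31.7 FPKM (difference 3.04, 1.93 without cell 26 and 4.84 without cell 32). Spp1, osteopontin, was above 0 in 2 low cells, 26 and 28, and Trem2, the lipid receptor of these macrophages, differed by 0.52, and by 1.82 without cell 26, where it was listed at 0.

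Inflammatory genes had 12 measured members, 4 lower (Ccl4 at -3.19, Cxcl2 at -2.74, Ccl3 at -2.38 and Cxcl1 at -2.35, or -3.65 without cell 26) and 0 higher, at a median of -1.40 (-1.22 to -1.77 leaving out 1 low cell). Without cell 28, 2 were lower, since Cxcl1 stood at -1.99 and Cxcl2 at -1.96. These are chemokines for neutrophils, monocytes and T cells. Immediate early genes had 15 measured members, 4 lower (Atf3 at -2.64, Junb at -2.46, Ier2 at -2.26 and Egr1 at -2.04) and 1 higher, Fos at 2.05, at a median of -0.74. That median was 0.05 without cell 28, 6 genes were lower without cell 16, and without cell 26 Fos stood at 0.91 and Junb at -1.81. Lysosomal genes had 17 measured members, 3 lower (Ctsh, Ctsc and Laptm5) and 1 higher (Grn), at a median of 0.43 that became -0.25 without cell 26, 1.20 without cell 32 and -0.06 after centring.

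Respiratory chain genes had 13 measured members, 7 higher (Cox6b1, Cox5a, Cox6c, Cox7c, Ndufa4, Uqcrq and Atp5a1) and 0 lower, at a median of 2.21 (1.34 without cell 26, with 5 higher). Without cell 26, Cox6c moved from 2.68 to 1.34 and Atp5a1 from 2.21 to 0.91, while Ndufa4 moved from 2.37 to 4.06 and Uqcrq from 2.35 to 3.64. After centring with cell 26 kept, 3 were higher and the median was 1.72. Cox6b1, of complex IV, was at 402 in cell 16, 9.32 in cell 26, 3038 in cell 28, 1431 in cell 32 and 366 FPKM in cell 35, against a median of 13.9 FPKM (difference 3.75), and cell 26 was the lowest of the 5. Glycolysis genes had 9 measured members, 2 higher (Tpi1 and Pkm at 4.14) and 0 lower, at a median of 0.78, and without cell 26 4 were higher at a median of 1.20. Iron and antioxidant genes had 11 measured members, 3 higher (Prdx5 at 3.00, Hmox1 at 2.83 and Gpx4 at 2.33, or 3.77 without cell 26) and 0 lower, at a median of 1.29. Hmox1, heme oxygenase, was high in cells 16 and 26 and listed at 0 in cells 32 and 35, and the difference was 1.58 without cell 16.

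**Figure D5:**
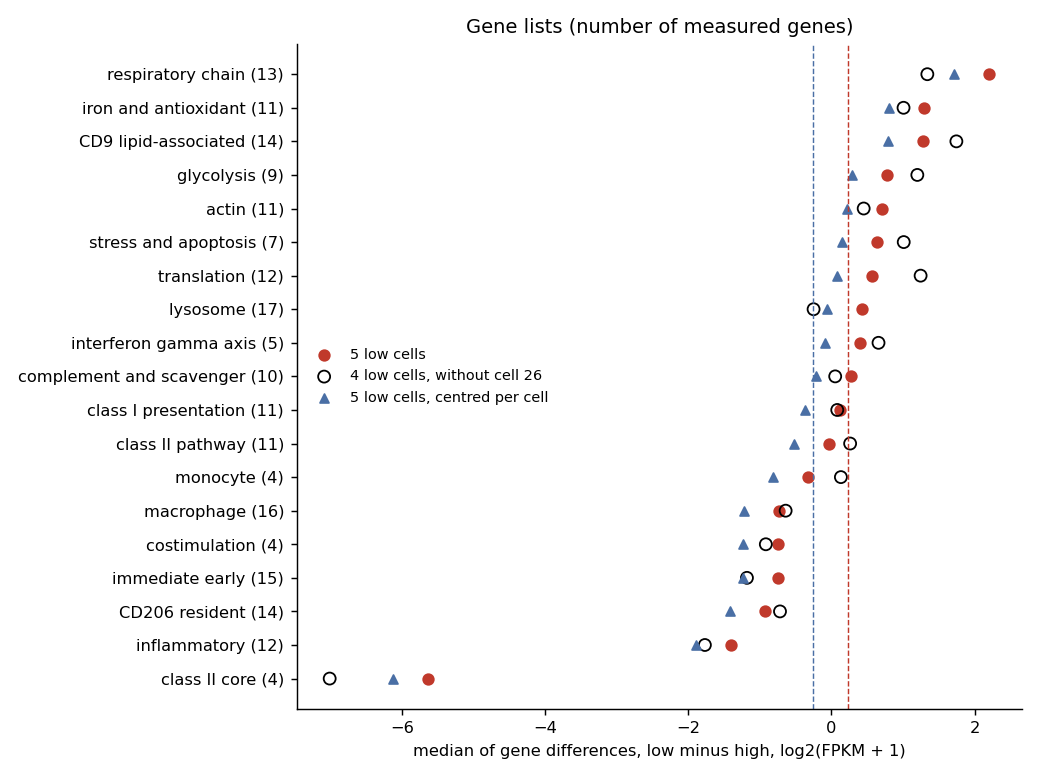
Median of the gene differences (low minus high, log2(FPKM + 1)) for each gene list with at least 4 measured genes, for 5 low cells, for the 4 without cell 26 and after centring each cell; dashed lines are the all-gene medians of 0.23 as deposited and -0.26 centred. The core class II list stands apart from the other lists, at -5.64, and the respiratory chain list is highest at 2.21.

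Among the 30 high cells, which share a group and differ in depth, H2-Aa was compared with the other genes. Spearman's rho with H2-Aa was 0.77 for Cd74, 0.71 for H2-Eb1 and 0.46 for H2-Ab1, against a median of -0.01 over the 376 genes detected in at least 80% of these cells. The 10 genes with the highest rho also held Arpc4 (0.66), Cd83 (0.57), Marcks (0.44), Kdm6b (0.43), Ptges3 (0.42), Rps21 (0.41) and Cxcl2 (0.41). H2-DMb1 stood at 0.35, H2-DMa at 0.15 and Ciita at -0.34. Over the 18 high cells numbered 0 to 19 rho was 0.86 for Cd74 and 0.74 for H2-Eb1, and over the 12 numbered 20 to 36 it was 0.42 and 0.38. H2-Aa had a rho of -0.56 with how many genes reached 1 FPKM and of 0.10 with the FPKM sum of these cells, and the part of detection in the rho values was not tested.

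Whole profiles were also compared between cells. Over the measured genes, the median rho was 0.32 between low cells (10 pairs), 0.29 between low and high cells (150 pairs) and 0.31 between high cells (435 pairs), and the ranges overlapped. Without cell 26, the medians were 0.34 between low cells and 0.30 between low and high cells. Cell 26 had a median rho of 0.28 with the other low cells and of 0.26 with the high cells.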

How the data were processed

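RNA of 37 sorted single cells was measured. FPKM were deposited by the authors for 23947 genes in 1 table. The submitters' processing notes name the tools STAR and Cuffnorm and the mouse build mm9, and their versions, the annotation and settings were not stated in any source used here. An exact 0 can be a failed estimate, and the widely used genes Hprt, Rpl3 and Gapdh were listed at 0 in 6, 3 and 2 cells. Whole reads could not be recovered from the values, so no count model was used, and the depth is unknown beyond the relative value of 1 fragment, estimated from low values in 665 of 666 pairs of cells. No 2 cells held the same values.

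Values were transformed to log2(FPKM + 1), a pseudocount of 1, which understates differences of low genes. The sides, the 31 gene lists (333 genes, 325 matched) and the tests were chosen with earlier results of these data known. Named genes were the measured class II genes, the 15 most negative and 15 most positive differences among genes at 1 FPKM in at least 80% of the side where they were higher with medians of the same sign, 2 to 4 examples per list with the largest differences, and the 10 genes with the highest rho to H2-Aa. Some other list genes were named for background after their values were seen. Gene symbols are those of the table. Near-identical copies (ribosomal proteins, Tpi1, class I genes) can share reads. Alternatives were other pseudocounts, filters, thresholds, scalings and sets of cells. Calculations used Python 3.11.15, numpy 2.4.6, pandas 2.3.3, scipy 1.17.1 and matplotlib 3.10.9. The comparison code was also run on simulated data with known shifts, which checks the arithmetic and not the genes called in these cells.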

Additional observations from a re-analysis of the deposited data

How the results depend on the processing

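The low side holds 5 cells of an unknown number of animals, fragment counts are unknown, and the counts over all genes moved by more than 1.5 times in 34 comparisons with an alternative and stayed within that in 58. The cause was not tested beyond what each choice fixes. Genes higher on the low side past the fold, 420 as reported, were 823 at a pseudocount of 0.1, 102 at 10, 188 with detection in at least 15 cells, 261 with an H2-Aa threshold of 1000 FPKM, 674 when split by Cd74, 781 when split by H2-Ab1 (both at 150 FPKM), 241 centred per cell, 787 in cells 0 to 19 only, and 688 without cell 26 and rescaled. Genes lower, 84 as reported, were 280 and 19 at the 2 pseudocounts, 46 and 40 at H2-Aa thresholds of 500 and 1000 FPKM, 211 split by Cd74, 169 rescaled, 174 centred, 164 in cells 20 to 36, 331 in cells 0 to 19, and 164 without cell 26 and rescaled.

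Higher genes without overlap, 0 as reported, were 3 at a threshold of 50 FPKM, 10 split by Cd74, 4 split by H2-Ab1, 1 without shallow cells, 2 in cells 20 to 36 and 162 in cells 0 to 19. Lower genes without overlap, 1 as reported, were 2 split by Cd74, 3 without shallow cells, 3 in cells 20 to 36, 12 in cells 0 to 19, 2 split by H2-Eb1 below 10 FPKM, and 3 without cell 26 and rescaled. Leaving out each low cell in turn gave 410 to 584 higher and 85 to 121 lower genes past the fold, and 0 to 1 higher (1 without cell 32) and 1 to 3 lower (3 without cell 26, 2 without cell 28) without overlap. The split by H2-Eb1 and the joint removal of cell 26 with rescaling were chosen after seeing the data.

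With cell 16 as the lone low cell among cells 0 to 19, of the differences of 2 or more in size those that turned were Atf3 (1.67), Axl (-0.17), Ccl3 (1.20), Cxcl2 (1.33), F13a1 (1.45), H2-DMb1 (2.27), Prdx5 (-3.53), Psme2 (-0.58), Rpl28 (0.38), Rpl4 (-0.29), Spi1 (-0.30), Spp1 (-0.70) and Tpt1 (-0.12), and of list medians of 0.5 or more in size glycolysis (-0.14), immediate early (0.85), resident (0.75) and translation genes (-0.13) turned. Split by Cd74, Axl was -0.013, Lpl -0.27 and the stress list -0.997. With cells 7 and 27 included, Cxcl1 was 0.19 and the immediate early list 0.026. At a threshold of 500 FPKM, Ier2 was 0.18, Junb 0.088 and the immediate early list 0.54, and at 1000 FPKM the immediate early list was 0.45 and the resident list 0.38. Leaving out each low cell in turn, the immediate early list ran from -1.18 (without cell 26) to 0.055 (without cell 28). For the 69 named genes past the fold, 18 of 1587 values under the alternatives turned, in 17 genes. For the 31 named genes not past the fold, 100 of 713 turned, in 21 genes. Both totals include alternatives that changed only the gene filter, which could not move the difference of a named gene. Genes past the fold were picked by the values of the same cells that most alternatives reuse. The counts of turned values are therefore a description and do not measure how stable these genes are. No paired analysis was possible because the numbers in the labels name cells of 1 group.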
